A study of Homo sapiens with 18 samples.

Results

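The genes described here are those whose RNA response to TRI-611 was measured in both SNU2535 and NCI-H2228, and the quantity of interest is the difference between the 2 responses. A gene was included when it reached 1 TPM (a relative transcript abundance, corrected for gene length, with a fixed sum per library) in at least 3 of the 6 libraries of each line. Of 57500 genes in the table, 16252 met this in SNU2535, 16806 in NCI-H2228 and 14640 in both. Both are established human non-small cell lung cancer lines that the labels give as wild type in genotype, and both are known to carry an EML4-ALK fusion. TRI-611 is described in the series title as a molecular glue degrader of ALK. Each line was exposed either to the solvent DMSO or to 3 µM TRI-611, in each case for 3 h, with 3 libraries per group. This gives 12 of the 18 libraries of the series, and the other libraries come from one more line of the same kind, NCI-H3122, under the same treatments. Whether the 3 libraries in each group derive from independent cultures is not stated in the labels. The p-values therefore rest on the scatter among the libraries alone, and that scatter could be technical.

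ALK is a receptor tyrosine kinase, and its fusion to EML4 keeps it active without ligand. Active ALK drives the RAS-RAF-MEK-ERK cascade, whose output includes growth factor genes, AP-1 factors and a set of inhibitors (Sprouty and Spred proteins, dual specificity phosphatases) that dampen the same cascade. It also feeds PI3K and AKT, which hold FOXO transcription factors out of the nucleus, and it can activate STAT3. The transcripts of ERK output genes are short lived, so their level follows the activity of the cascade within hours.

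A response is the TRI-611 mean minus the DMSO mean on the log2(TPM + 1) scale, and the difference is the SNU2535 response minus the NCI-H2228 response. A negative difference means that the SNU2535 response was the lower one. The difference was tested with limma over all 14640 genes, and a gene is called when its Benjamini-Hochberg adjusted p is under 0.05, whatever its size. Of the tested genes 1547 were called (10.6%), 1146 with a negative difference (7.83%) and 401 with a positive one (2.74%). An unadjusted p under 0.05 was reached by 3685 genes. Negative differences made up 74.1% of the calls, a share that depends on the scaling of the libraries: it was 55.5% under median-ratio scaling (873 negative and 700 positive) and 60.5% under quantile normalization. The positive count also rested on single libraries, with 251 left without NCI-H2228 DMSO replicate 1 and 266 without NCI-H2228 TRI-611 replicate 2.

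In most called genes the larger response was that of SNU2535. This held for 1334 of the 1547 (86.2%). In the same fit, 33.3% of all tested genes had a called response in SNU2535 and 15.8% in NCI-H2228. How far the counts below follow that general imbalance was not tested. Both responses were called in the same direction, with the larger one in SNU2535, for 338 negative and 72 positive differences, and SNU2535 alone had a called response for 643 negative and 247 positive ones. NCI-H2228 alone had a called response for 96 negative and 44 positive differences, and both responses were called and larger in NCI-H2228 for 11 and 9. Called responses in opposite directions accounted for 49 genes (0.335% of those tested), a count that was 31 without NCI-H2228 DMSO replicate 1 and 86 without NCI-H2228 DMSO replicate 3. The remaining 38 differences were called although neither response was. Across all tested genes the SD of the responses was 0.34 in SNU2535 and 0.24 in NCI-H2228, the median difference was -0.04, and the responses of the lines correlated at Pearson's r = 0.477 across genes, which are not independent replicates.

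**Figure D1:**
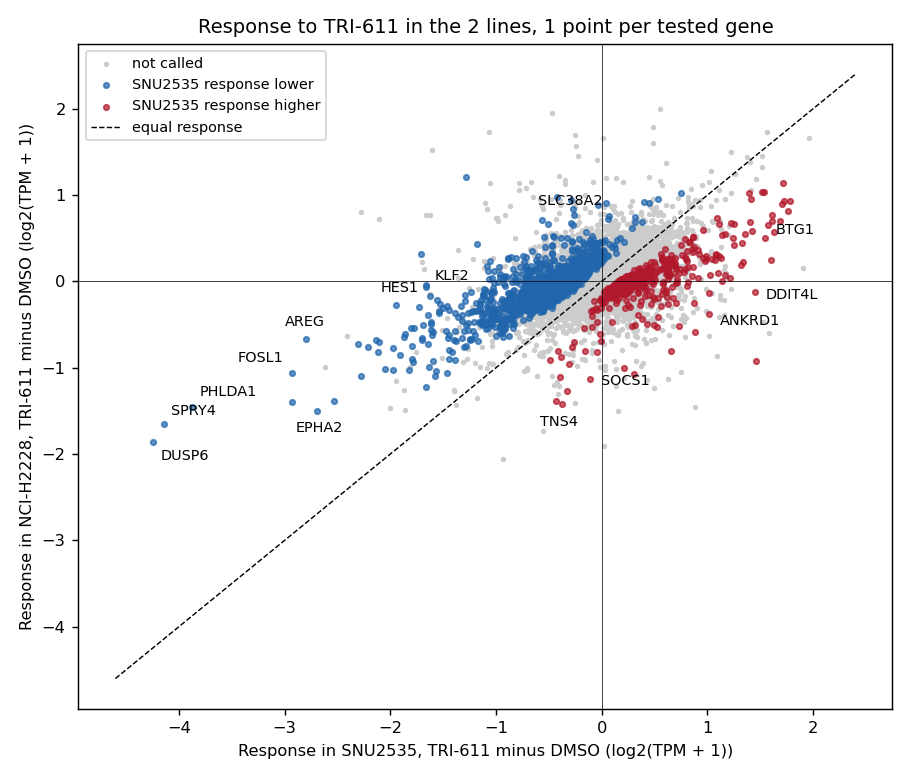
Response to TRI-611 in SNU2535 (horizontal) against NCI-H2228 (vertical), both on the log2(TPM + 1) scale, with 1 point per tested gene. Blue points are the 1146 called negative differences, red points the 401 called positive ones and grey points the genes not called; the blue points at the lower left, such as DUSP6 (-4.24 against -1.86), lie above the dashed line of equal response.

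Among genes with a group mean of 10 TPM or more in both lines, the 5 largest negative differences were those of SPRY4, PHLDA1, DUSP6, AREG and FOSL1. Counting calls of at least 1 on the log2 scale, 74 genes were negative (0.505% of those tested) and 22 positive (0.150%). SPRY4, a Sprouty protein that restrains RAS activation downstream of receptor kinases (ENSG00000187678, GRCh38 chromosome 5, 142310427 to 142326455), measured 19.6, 20.5 and 18.5 TPM with DMSO in SNU2535 and 0.119, 0.146 and 0.222 TPM with TRI-611. In NCI-H2228 it measured 16.6, 17.0 and 17.0 TPM with DMSO and 4.86, 4.26 and 4.93 TPM with TRI-611. The DMSO libraries of the lines lay close together, while every TRI-611 library of SNU2535 lay far below every TRI-611 library of NCI-H2228. On the linear scale 0.831% of the DMSO mean was left in SNU2535 and 27.7% in NCI-H2228. The difference in response was -2.49 (SE 0.107, limma adjusted p = 4.27e-08). SPRY4 and DUSP6 were under 1 TPM with TRI-611 in SNU2535, so that they passed the filter there only through the DMSO libraries, and the log2(TPM + 1) scale understates how far they fell.

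DUSP6, the cytoplasmic phosphatase that inactivates ERK (ENSG00000139318, chromosome 12, 89347232 to 89353271), had the same form. Its SNU2535 libraries read 25.2, 28.1 and 28.3 TPM with DMSO and 0.426, 0.499 and 0.539 TPM with TRI-611, against 15.6, 14.1 and 15.8 TPM and then 3.23, 3.77 and 3.40 TPM in NCI-H2228. The TRI-611 groups did not overlap between the lines, and 1.79% of the DMSO mean was left in SNU2535 against 22.8% in NCI-H2228 (difference -2.38, SE 0.112, limma adjusted p = 9.85e-08). PHLDA1, a pleckstrin homology protein induced by growth factors (ENSG00000139289, chromosome 12, 76025447 to 76033932), started higher in NCI-H2228. It fell from 128, 122 and 126 TPM to 7.10, 8.14 and 7.60 TPM in SNU2535, and from 177, 169 and 182 TPM to 60.2, 62.3 and 68.5 TPM in NCI-H2228. PHLDA1 thus kept 6.08% of its DMSO mean in SNU2535 and 36.2% in NCI-H2228 (difference -2.42, SE 0.0777, limma adjusted p = 2.12e-09).

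All 3 belong to a published signature of MAPK pathway output, of which 10 genes were tested. Of these, 9 had a called negative difference, with a median difference of -1.11 beside -0.04 over all tested genes. The other called members were the Eph receptors EPHA4 (-1.25) and EPHA2 (-1.20), the Sprouty gene SPRY2 (-1.02), the nuclear ERK phosphatase gene DUSP4 (-0.79), the G1 cyclin gene CCND1 (-0.58) and the ETS factor gene ETV5 (-0.57). The ETS factor gene ETV4 stood at -0.08 (SE 0.0641, limma adjusted p = 0.469). The number of called members was 9 under every scaling, block and left-out library tried. The signature has been studied in these libraries before, so its direction here is not independent evidence.

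The wider groups of pathway inhibitors were mixed. For these and the later lists, the shares over all tested genes to set beside the counts are 7.83% negative and 2.74% positive. Of 11 MAP kinase phosphatases, 6 had a negative and 1 a positive difference (median -0.30). Besides DUSP6 and DUSP4, the negative ones were DUSP2 (-1.44), DUSP7 (-1.27), DUSP5 (-1.23) and DUSP14 (-0.30), of which DUSP2 lay under 1 TPM in all 3 TRI-611 libraries of NCI-H2228 and passed the filter there only through DMSO. In the other direction DUSP1, a phosphatase that acts mainly on JNK and p38, stood at 0.86. DUSP7, a cytoplasmic ERK phosphatase like DUSP6, dropped from 34.3 ± 1.37 to 9.10 ± 0.241 TPM in SNU2535 and from 25.7 ± 1.85 to 17.4 ± 0.636 TPM in NCI-H2228 (SD, n = 3 each). Of 14 Sprouty, Spred and receptor feedback inhibitors, 7 had a called difference, each negative (median -0.26). SPRED2, which blocks RAF activation by RAS, went from 33.3 ± 0.973 to 9.38 ± 1.05 TPM in SNU2535 and from 49.1 ± 1.28 to 39.6 ± 0.894 TPM in NCI-H2228 (SD, n = 3 each; difference -1.43, SE 0.0903, limma adjusted p = 1.21e-06). ERRFI1, an inhibitor of the EGF receptor, began at nearly the same level in both lines (452 ± 9.15 and 449.9 ± 18.1 TPM, SD, n = 3 each) and kept 34.3% of it in SNU2535 and 77.4% in NCI-H2228 (difference -1.17). Of 24 tested genes for the cascade itself (RAS, RAF, MEK, ERK and adaptors) 1 was called, the RAS GTPase-activating protein gene RASA1 at -0.39. That is 4.17%, beside 10.6% called over all tested genes. The median was -0.04, like that of all tested genes (0.02 under median-ratio scaling). Nothing particular to the cascade genes is read from these values.

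**Figure D2:**
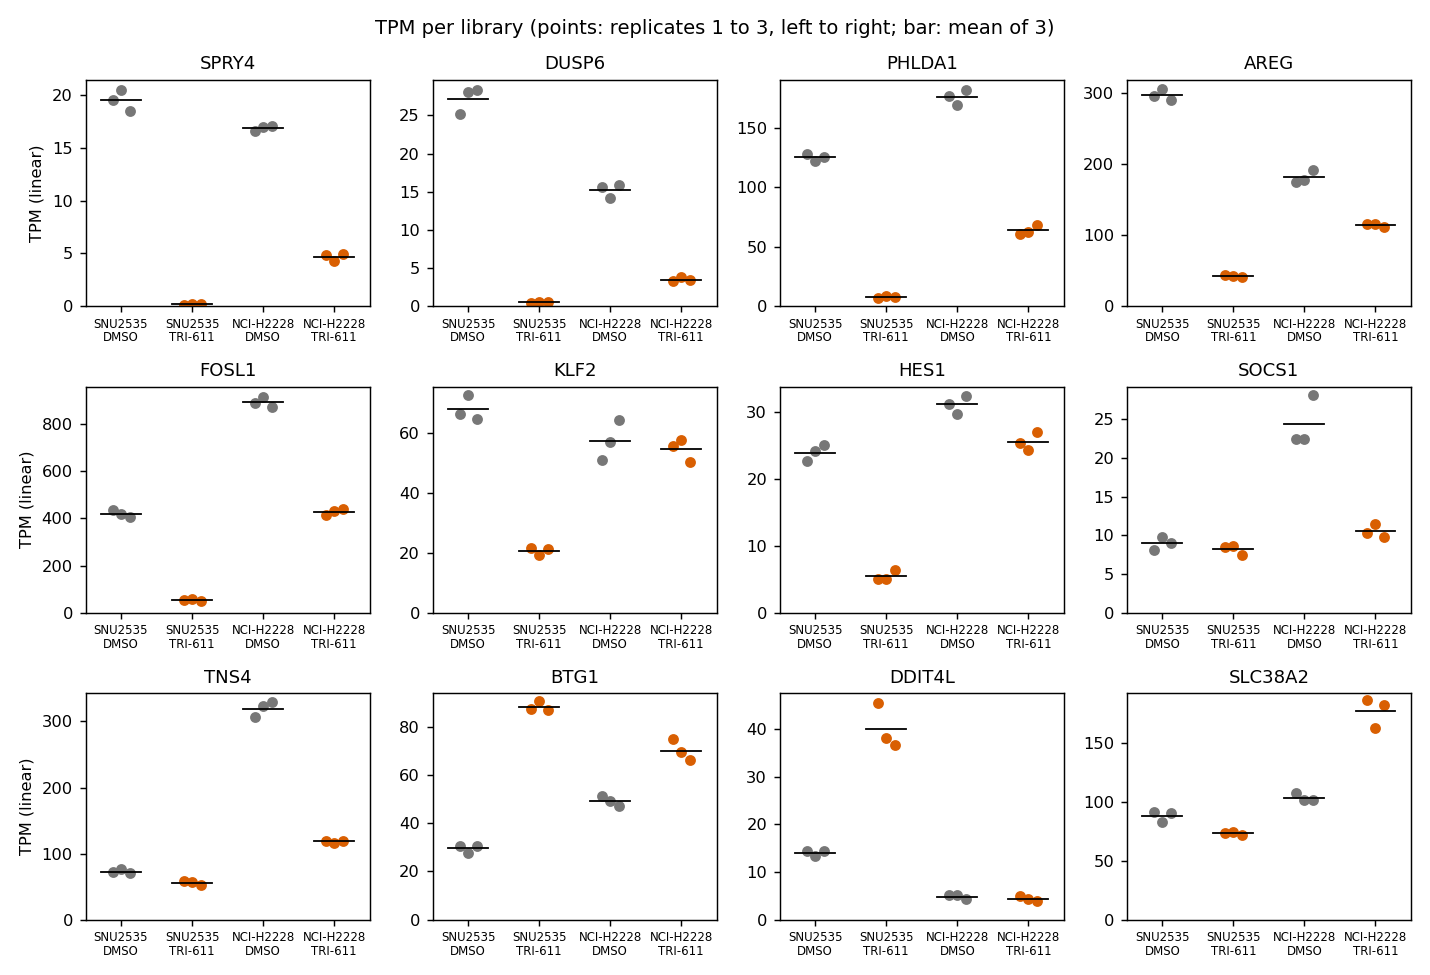
TPM of 12 named genes in each of the 12 libraries (linear axes from 0; points are replicates 1 to 3 and bars the mean of 3, with DMSO in grey and TRI-611 in orange). In the panels of SPRY4, DUSP6, PHLDA1, AREG and FOSL1 the TRI-611 libraries of SNU2535 lie below those of NCI-H2228, while in the panels of SOCS1 and TNS4 the larger fall is that of NCI-H2228.

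Ligands of the EGF receptor family, which a cell can secrete to stimulate itself, fell further in SNU2535. Amphiregulin, AREG (ENSG00000109321, chromosome 4, 74445134 to 74455009), measured 296, 306 and 290 TPM with DMSO and 43.4, 41.9 and 40.6 TPM with TRI-611 in SNU2535. In NCI-H2228 it went from 174, 177 and 192 TPM to 115, 115 and 112 TPM. The line with the higher DMSO level therefore ended with the lower TRI-611 level, and the groups did not overlap in either condition (difference -2.13, SE 0.0578, limma adjusted p = 5.16e-10). Epiregulin, EREG, showed the reverse order of starting levels: 17.5 ± 0.979 TPM in SNU2535 and 168 ± 5.64 TPM in NCI-H2228 with DMSO, and 3.48 ± 0.451 and 82.6 ± 5.52 TPM with TRI-611 (SD, n = 3 each). It still had a negative difference (-1.04), as did HBEGF (-1.15), TGFA (-0.80) and the KIT ligand gene KITLG (-0.70), so that 5 of 8 EGFR and FGFR ligands and relatives were called, all negative (median -0.75). EPHA2, a receptor kinase of the Eph family (ENSG00000142627, chromosome 1, 16124337 to 16156087), measured 283, 312 and 281 TPM with DMSO and 44.0, 44.9 and 44.0 TPM with TRI-611 in SNU2535. In NCI-H2228 it measured 332, 351 and 367 TPM and then 114, 127 and 129 TPM. With TRI-611 the lines did not overlap, and 15.2% and 35.3% of the DMSO means were left. Among 13 Eph receptors and ephrins 4 were negative and 1, EPHB3 (0.49), was positive. Of 17 tested receptor tyrosine kinase genes, ERBB3 (0.53) and ERBB2 (0.21) were positive and MET (-0.21) negative. The call of ERBB2 was lost with the replicate block within each line and when any of 5 libraries was left out, and that of MET under median-ratio scaling and when any of 7 was left out.

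The promoters of 4 genes are shown as examples from a larger number of named genes with a motif of a signal-regulated factor. They are AREG and EPHA2 on the negative side and BTG1 and OTUD1 (both described further on) on the positive side. No fixed rule chose them, and the pairing of motif with side is not a result. The AP-1 motif, not shown, was present in the positive genes ANKRD1 and ERBB2 and in the negative genes CXCL8 and F3. The sequences are the 250 bases before the RefSeq start site on build GRCh38.p14, 5′ to 3′ on the gene's strand, at chr4:74444886-74445135 (plus strand), chr1:16156070-16156319 (minus), chr12:92145847-92146096 (minus) and chr10:23438825-23439074 (plus). Capitals mark the cAMP response element TGACGTCA in AREG and EPHA2, the FOXO motif GTAAACA or its reverse complement in BTG1 and OTUD1, and the E-box CACGTG in OTUD1.
AREG: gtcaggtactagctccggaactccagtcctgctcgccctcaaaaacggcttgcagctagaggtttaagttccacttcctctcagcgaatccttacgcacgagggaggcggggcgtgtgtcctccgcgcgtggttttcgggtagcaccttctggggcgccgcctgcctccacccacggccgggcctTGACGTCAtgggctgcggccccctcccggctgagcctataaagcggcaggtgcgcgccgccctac
EPHA2: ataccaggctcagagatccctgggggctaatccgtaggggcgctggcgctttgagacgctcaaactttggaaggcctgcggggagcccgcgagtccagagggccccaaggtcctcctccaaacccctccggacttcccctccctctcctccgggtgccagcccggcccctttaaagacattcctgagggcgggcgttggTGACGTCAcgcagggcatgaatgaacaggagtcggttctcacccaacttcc
BTG1: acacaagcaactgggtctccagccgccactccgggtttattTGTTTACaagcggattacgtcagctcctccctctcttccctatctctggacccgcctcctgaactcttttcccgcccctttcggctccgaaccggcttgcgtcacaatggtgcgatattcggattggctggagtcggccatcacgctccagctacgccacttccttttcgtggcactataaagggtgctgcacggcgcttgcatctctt
OTUD1: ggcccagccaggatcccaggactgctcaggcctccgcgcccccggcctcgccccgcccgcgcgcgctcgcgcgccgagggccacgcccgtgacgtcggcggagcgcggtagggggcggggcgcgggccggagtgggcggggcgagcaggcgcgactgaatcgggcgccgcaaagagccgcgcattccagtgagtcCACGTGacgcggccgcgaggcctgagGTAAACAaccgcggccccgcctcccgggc
Counted from the start site as 0, the cAMP response element lies at -65 to -58 in AREG and -51 to -44 in EPHA2, the FOXO motif at -209 to -203 in BTG1 and -29 to -23 in OTUD1, and the E-box at -55 to -50 in OTUD1. Both strands were searched in 300 bases, from 250 before to 50 after the start, for these motifs and for the ETS motif CCGGAAGT, the AP-1 motif TGANTCA, the STAT motif TTCNNNGAA and the CArG box of serum response factor. RefSeq promoters were matched for 9546 of the 14640 tested and 1158 of the 1547 called genes. The cAMP response element occurred in 1.98% of all promoters in the table, 3.34% of those of tested genes, 3.20% of those with a negative difference and 2.48% of those with a positive one. The FOXO motif occurred in 3.41%, 2.25%, 1.71% and 5.32% of the same groups, and the E-box in 7.43%, 10.5%, 14.6% and 8.51%. The windows of SPRY4, PHLDA1 and DUSP6 held none of the motifs searched, which says only that these letters are not in these windows. A match is a description and was not tested against the responses.

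Immediate early genes, which respond to growth factors without new protein synthesis, divided between the lines. Of 28 tested, 12 had a negative and 3 a positive difference (median -0.36). FOSL1, an AP-1 subunit typical of sustained ERK activity (ENSG00000175592, chromosome 11, 65892049 to 65900573), measured 435, 421 and 404 TPM with DMSO and 53.9, 59.9 and 49.1 TPM with TRI-611 in SNU2535. In NCI-H2228 it was higher throughout, at 891, 916 and 873 TPM and then 413, 431 and 439 TPM. The TRI-611 libraries of NCI-H2228 thus overlapped with the DMSO libraries of SNU2535, and 12.9% and 47.9% of the DMSO means were left (difference -1.87, SE 0.0810, limma adjusted p = 4.27e-08). KLF2, a zinc finger factor best known from endothelium and T cells, read 66.4, 72.8 and 64.7 TPM and then 21.6, 19.3 and 21.3 TPM in SNU2535. Its NCI-H2228 libraries read 51.1, 57.1 and 64.2 TPM with DMSO and 55.7, 57.8 and 50.2 TPM with TRI-611. The NCI-H2228 groups overlapped, and the response there was -0.07 (limma adjusted p = 0.631), which gave a difference of -1.60 (SE 0.114, limma adjusted p = 3.20e-06). The small MAF factor gene MAFK (-1.14), the kinase gene PLK3 (-1.21) and the zinc finger gene KLF16 (-1.19, of the KLF and SP list) were also negative. EGR1 stood at -1.18 with a wide error (SE 0.350, limma adjusted p = 0.0625), and FOS at -0.38 (SE 0.475, limma adjusted p = 0.682). On the other side were PLK2 (0.68), JUN (0.44) and CYR61 (0.27): JUN, the partner of FOS proteins in AP-1, went from 115 to 95.9 TPM in SNU2535 and from 117 to 71.4 TPM in NCI-H2228 on average. MAFK, EGR1, FOS, PLK2, JUN and other list members outside the rule for named genes were picked for mention after their values were seen.

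Of 16 Notch pathway genes 5 were negative and 1 positive (median -0.20). HES1, a repressor that Notch and also ERK can induce (ENSG00000114315, chromosome 3, 194136145 to 194138732), measured 22.7, 24.1 and 25.04 TPM and then 4.99, 5.04 and 6.43 TPM in SNU2535. It measured 31.3, 29.8 and 32.5 TPM and then 25.4, 24.4 and 27.1 TPM in NCI-H2228. Both lines were lower with TRI-611, SNU2535 at 22.9% and NCI-H2228 at 82.2% of the DMSO mean (difference -1.68, SE 0.112, limma adjusted p = 1.57e-06). NRARP, a negative feedback protein of Notch, went from 21.6 ± 0.753 to 10.1 ± 0.466 TPM in SNU2535 and stood at 23.4 ± 0.668 and 25.4 ± 1.17 TPM in NCI-H2228 (SD, n = 3 each; difference -1.14). LFNG, the Fringe enzyme that glycosylates Notch receptors, rose in both lines and more in SNU2535, from 28.3 ± 1.63 to 96.0 ± 4.83 TPM against 18.8 ± 1.48 to 36.6 ± 1.03 TPM (SD, n = 3 each; difference 0.80). FOXQ1 and RASSF10 are outside that list. FOXQ1, a forkhead factor, kept 14.6% of its DMSO mean in SNU2535 and 58.9% in NCI-H2228 (difference -1.58). The RAS association domain gene RASSF10 was much more abundant in SNU2535 and went from 65.7 ± 1.61 to 19.6 ± 2.76 TPM there, against 6.41 ± 0.874 and 8.23 ± 1.22 TPM in NCI-H2228 (SD, n = 3 each; difference -2.02, SE 0.161, limma adjusted p = 8.74e-06). The NCI-H2228 response of RASSF10 was 0.32 (limma adjusted p = 0.0819).

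In the Wnt pathway, 8 of 19 tested genes were negative and 3 positive (median -0.16). Without NCI-H2228 TRI-611 replicate 3 there were 5 negative ones. AXIN1, a scaffold of the beta-catenin destruction complex, went from 33.0 ± 2.34 to 18.4 ± 1.18 TPM in SNU2535 and stood at 41.0 ± 1.99 and 40.7 ± 0.272 TPM in NCI-H2228 (SD, n = 3 each; difference -0.81). The Wnt receptor gene FZD7 fell in SNU2535 and rose in NCI-H2228 (difference -0.75), while another receptor gene, FZD2, rose in both and more in SNU2535 (difference 0.78). The secreted Wnt inhibitor gene DKK1 stood at 0.72, with a response of 0.72 in SNU2535 and -0.01 in NCI-H2228 (limma adjusted p = 0.955 for the latter). Of 28 BMP and TGF-beta feedback genes 6 were negative, with the ubiquitin ligase gene SMURF2 the lowest (-0.65), and 4 positive, with ATOH8 the highest (0.73). The call of ATOH8 was lost with a pseudocount of 5.

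Of 22 STAT3 targets and SOCS genes 7 were negative and 1 positive (median -0.19; 4 negative under median-ratio scaling). CEBPD, a C/EBP factor of the acute phase response, went from 187 ± 19.5 to 62.9 ± 5.09 TPM in SNU2535 and from 57.9 ± 4.85 to 49.8 ± 3.45 TPM in NCI-H2228 (SD, n = 3 each; difference -1.34, SE 0.123, limma adjusted p = 3.52e-05). The NCI-H2228 response of CEBPD was not called (-0.21, limma adjusted p = 0.130). SOCS3, a feedback inhibitor of JAK signalling, fell in both lines and kept 27.8% of its DMSO mean in SNU2535 and 53.2% in NCI-H2228 (difference -0.90). SOCS1, the closely related inhibitor, did the opposite. It read 8.10, 9.80 and 9.00 TPM and then 8.52, 8.60 and 7.51 TPM in SNU2535, where the groups overlapped, and 22.4, 22.5 and 28.2 TPM and then 10.3, 11.4 and 9.84 TPM in NCI-H2228, where they did not. With TRI-611 the lines stood at 8.21 ± 0.611 and 10.5 ± 0.810 TPM (SD, n = 3 each; difference 1.02, SE 0.137, limma adjusted p = 0.000418). Of 21 NF-kB targets and chemokines, 3 were negative, the neutrophil attractant CXCL8 (-1.18), the cytokine LIF (-1.12) and the deubiquitinase gene TNFAIP3 (-0.64), and 4 were positive by less than 0.5.

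MYC and genes of ribosome assembly fell further in SNU2535. MYC itself (ENSG00000136997, chromosome 8, 127735434 to 127741434) measured 188, 207 and 214 TPM with DMSO and 65.3, 68.0 and 69.4 TPM with TRI-611 in SNU2535. In NCI-H2228 it measured 118, 115 and 126 TPM and then 56.9, 56.7 and 58.8 TPM. The DMSO groups stood apart, and with TRI-611 the lines came close without overlapping (difference -0.53, SE 0.0707, limma adjusted p = 0.000418). Of 49 MYC and ribosome biogenesis genes 24 had a called difference, each negative, and the median was -0.25. The larger response was that of SNU2535 in 48 of the 49. It was also the larger one in 86.2% of all called genes. Responses were wider in SNU2535 over all tested genes (SD 0.34 against 0.24), so nothing particular to this list is read from that count. PPRC1, a coactivator of mitochondrial and growth genes, kept 31.7% of its DMSO mean in SNU2535 and 66.9% in NCI-H2228 (difference -1.05). RRS1, a factor of large subunit assembly, kept 28.7% and 52.0% (difference -0.84). POLR1C, a subunit shared by RNA polymerases I and III, went from 27.5, 27.7 and 27.99 TPM to 11.1, 13.4 and 11.8 TPM in SNU2535 and from 51.7, 53.3 and 51.7 TPM to 39.5, 42.5 and 40.0 TPM in NCI-H2228. In each line the groups were well apart, and the difference was -0.78 (SE 0.0818, limma adjusted p = 6.04e-05). Of 17 snoRNA host genes, whose introns rather than spliced RNAs carry the guides for ribosomal RNA modification, 4 were negative, among them SNHG15 (-0.67). The number was 2 to 4 when 1 library was left out, with 2 without SNU2535 DMSO replicate 2, SNU2535 TRI-611 replicate 1, NCI-H2228 DMSO replicates 1 and 2, or NCI-H2228 TRI-611 replicates 2 and 3.

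The genes for the ribosomal proteins went the other way by a small amount. Of 79 cytosolic ribosomal protein genes, 16 had a called difference, each positive, and the median was 0.14, with median responses of 0.12 in SNU2535 and -0.03 in NCI-H2228. RPSA, a protein of the small subunit, measured 593, 623 and 617 TPM and then 709, 680 and 674 TPM in SNU2535. It measured 391, 374 and 365 TPM and then 352, 360 and 358 TPM in NCI-H2228. The groups did not overlap in either line, but only the SNU2535 response was called (difference 0.25, SE 0.0469, limma adjusted p = 0.00479). This count depended on the processing. It was 27 under median-ratio scaling, 6 under quantile normalization, 14 with the replicate block, 9 with the replicate block within each line, and 9 to 26 when 1 library was left out. The lowest values, 9 and 10, came from leaving out any of 8 libraries (SNU2535 DMSO or TRI-611 replicates 1 and 2, or NCI-H2228 DMSO or TRI-611 replicates 1 and 2), and the highest from leaving out NCI-H2228 DMSO replicate 3. The 13 mitochondrially encoded genes all had a negative difference, with a median of -0.22 (-0.72, 0.05 and -0.06 for replicates 1, 2 and 3). By limma 0 were called in any scaling, block or left-out library tried, and 1 had an unadjusted p under 0.05. Their summed share of TPM was 8.23% to 10.5% with DMSO and 10.2% to 11.4% with TRI-611 in NCI-H2228, and 7.59% to 9.94% and 8.63% to 9.92% in SNU2535. With TPM rescaled without these genes, 1843 genes were called, of which 80.0% were negative.

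**Figure D3:**
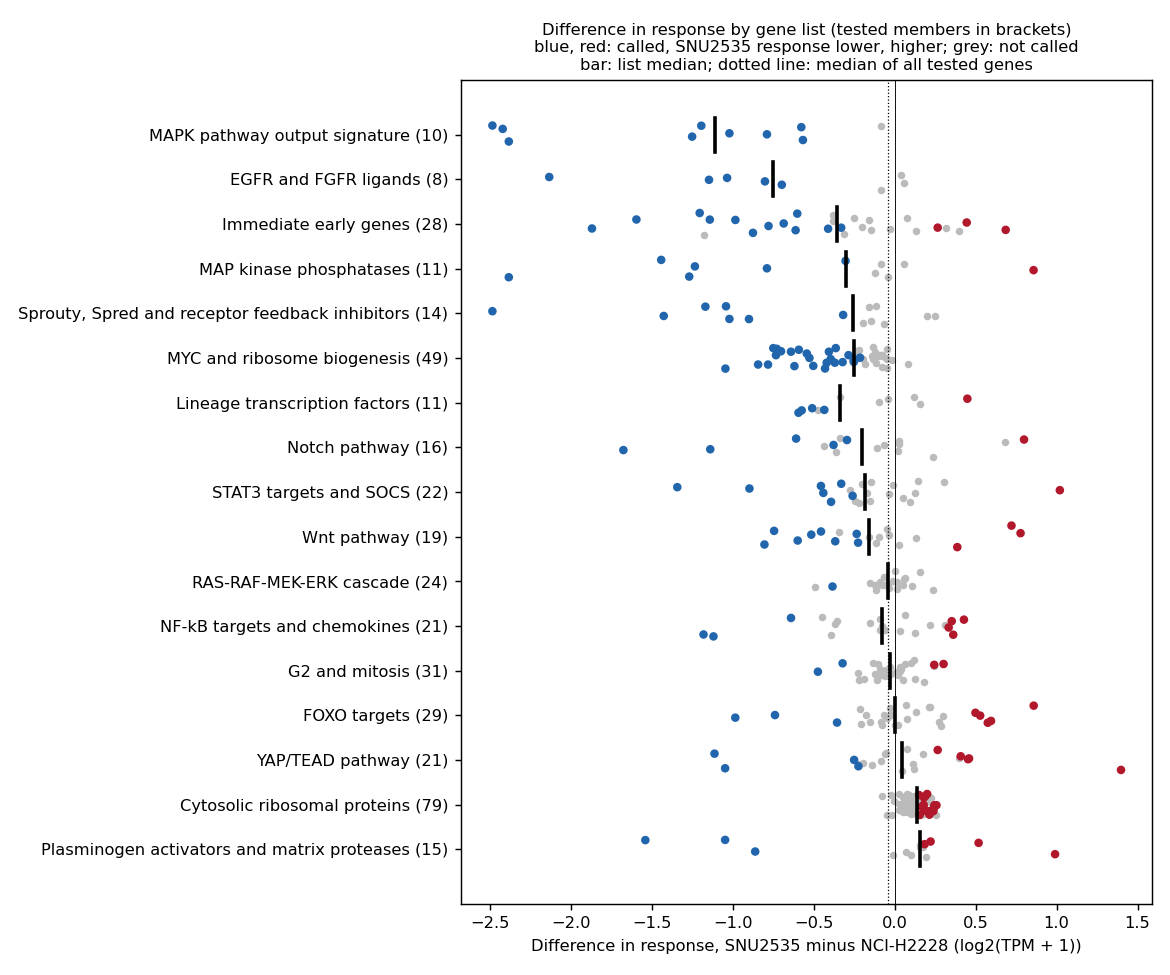
Difference in response (log2(TPM + 1) scale, horizontal) of the tested members of 17 gene lists, with 1 point per gene, blue and red for called negative and positive differences, grey for genes not called, a bar at each list's median and a dotted line at the median of all tested genes (-0.04). The MAPK pathway output signature has the lowest median (-1.11) and the FOXO targets lie on both sides of 0 (median 0.00).

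FOXO targets had called differences in both directions. Of 29 tested, 5 were positive (17.2%) and 3 negative (10.3%), beside 2.74% and 7.83% over all tested genes. The median difference was 0.00 (0.07 under median-ratio scaling and 0.08 under quantile normalization). Median responses were 0.47 in SNU2535 and 0.39 in NCI-H2228. Several targets with large responses in both lines, picked for mention after their values were seen, had no called difference. KLHL24, a ubiquitin ligase adaptor, had a difference of 0.30 (SE 0.113, limma adjusted p = 0.115). BMF, a pro-death BCL2 family member, stood at -0.18 (SE 0.0629, limma adjusted p = 0.0958), the cyclin gene CCNG2 at -0.07 (SE 0.1002, limma adjusted p = 0.736) and the mitochondrial kinase gene PDK4 at 0.02 (SE 0.237, limma adjusted p = 0.973). A p above the threshold does not show that these responses were equal. PIK3IP1, an inhibitor of PI3K, rose from 15.0, 13.3 and 12.6 TPM to 53.8, 45.6 and 48.9 TPM in SNU2535 and from 1.20, 1.54 and 1.41 TPM to 3.75, 3.41 and 3.41 TPM in NCI-H2228. It was nearly 10 times as abundant in SNU2535 with DMSO, and the fold rises on the linear scale, to 362% and 255% of the DMSO means, were closer than the difference of 0.86 (SE 0.122, limma adjusted p = 0.000644) conveys, since the added 1 TPM weighs on low values. BCL2L11, the pro-death protein BIM, rose from 10.3 ± 0.652 to 23.7 ± 0.774 TPM in SNU2535 and from 11.1 ± 0.808 to 16.6 ± 0.781 TPM in NCI-H2228 (SD, n = 3 each; difference 0.59, SE 0.0916, limma adjusted p = 0.00120). ERBB3 (0.53) and the atrophy ligase gene FBXO32 (0.50) were further positive members. Of the 3 negative members, IRS2, the adaptor of the insulin receptor (-0.74), fell in both lines, and the pseudokinase gene TRIB1 (-0.99) fell in SNU2535 and stood at 20.0 and 22.2 TPM on average in NCI-H2228, without a called response there.

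Among single genes with a positive difference, DDIT4L stood at 1.57 and PPP1R3C at 1.35. DDIT4L, an inhibitor of mTORC1 with no called response in NCI-H2228, read 14.3, 13.3 and 14.4 TPM and then 45.4, 38.1 and 36.7 TPM in SNU2535. In NCI-H2228 it read 5.10, 5.09 and 4.29 TPM and then 4.90, 4.24 and 3.92 TPM. The groups were apart in SNU2535 and overlapped in NCI-H2228 (difference 1.57, SE 0.132, limma adjusted p = 9.63e-06). BTG1, an antiproliferative protein that promotes removal of poly-A tails (ENSG00000133639, chromosome 12, 92140278 to 92145897), rose from 30.6, 27.7 and 30.7 TPM to 87.2, 90.6 and 86.8 TPM in SNU2535. It rose from 51.3, 49.0 and 47.0 TPM to 74.8, 69.3 and 66.0 TPM in NCI-H2228, so that the line with the lower DMSO level ended higher (difference 1.04, SE 0.0767, limma adjusted p = 3.49e-06). PPP1R3C, which targets protein phosphatase 1 to glycogen, rose to 322% of its DMSO mean in SNU2535 and 120.3% in NCI-H2228 (difference 1.35). OTUD1, a deubiquitinase (ENSG00000165312, chromosome 10, 23439458 to 23442390), rose to 422% and 187% (difference 0.95). COLCA2 rose in SNU2535 from 7.44 ± 0.816 to 20.2 ± 1.08 TPM and stood at 17.6 ± 1.51 and 20.7 ± 1.51 TPM in NCI-H2228 (SD, n = 3 each; difference 1.11). The interferon-induced gene IFIT2 (1.06) stood alone among 30 interferon-stimulated genes: OAS1 (-0.38) was the other call and was lost in 17 of 25 settings, including the replicate block, and the median was -0.01 (0.05 under median-ratio scaling).

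Smaller groups gave further contrasts. Both xenobiotic oxygenases among 7 AhR targets were positive: CYP1B1 rose from 99.9 ± 3.16 to 219 ± 16.3 TPM in SNU2535 and from 644 ± 6.73 to 776 ± 40.6 TPM in NCI-H2228 (SD, n = 3 each; difference 0.86), and CYP1A1 (0.92), at 0.236 ± 0.203 TPM with DMSO in SNU2535, passed the filter there only through TRI-611 and lost its call with a pseudocount of 5. Another AhR target, TIPARP, was negative (-0.77). Of 15 genes of plasminogen activation, clotting and matrix proteolysis, thrombomodulin (THBD, -1.54), tissue factor (F3, -1.05) and urokinase (PLAU, -0.86) were negative. The collagenase gene MMP13 (0.99) and 3 others were positive, and 2 positive ones were left without replicate 1 of DMSO or TRI-611 in SNU2535, without NCI-H2228 DMSO replicate 1, or without NCI-H2228 TRI-611 replicate 2. THBD went from 177 ± 9.85 to 22.3 ± 1.80 TPM in SNU2535 and from 424 ± 16.5 to 161 ± 8.46 TPM in NCI-H2228 (SD, n = 3 each). Of 21 circadian clock genes 5 were negative, including BHLHE40 (-0.69), and 2 positive, including PER1 (0.85). There were 3 negative ones with the replicate block within each line, and 3 to 8 when 1 library was left out, with 8 without NCI-H2228 DMSO replicate 3 and 3 without any of SNU2535 DMSO replicate 3, SNU2535 TRI-611 replicates 1 and 3, NCI-H2228 DMSO replicate 2, or NCI-H2228 TRI-611 replicates 1 and 2. STC2, a secreted glycoprotein induced by hypoxia and stress, went from 73.4 ± 2.29 to 23.2 ± 2.09 TPM in SNU2535 and stood at 311 ± 18.9 and 276 ± 5.86 TPM in NCI-H2228 (SD, n = 3 each; difference -1.45, SE 0.0830, limma adjusted p = 6.32e-07).

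A minority of differences came from a larger response in NCI-H2228. TNS4, a tensin of focal adhesions (ENSG00000131746, chromosome 17, 40475828 to 40501597), read 71.4, 76.0 and 70.2 TPM and then 58.1, 56.6 and 52.1 TPM in SNU2535. It read 307, 323 and 329 TPM and then 120, 116 and 119 TPM in NCI-H2228. Both lines fell without overlap, to 76.7% and 37.0% of the DMSO means (difference 1.05, SE 0.0646, limma adjusted p = 1.21e-06). The CDK inhibitor gene CDKN1A, 6 times as abundant in SNU2535 with DMSO, fell to 82.3% of the DMSO mean there and to 58.7% in NCI-H2228 (difference 0.48). SNAI2, the mesenchymal repressor also called Slug, fell to 69.8% and 52.3% (difference 0.42, SE 0.0951, limma adjusted p = 0.0135). Some negative differences came from a rise that was larger in NCI-H2228, and 2 genes with one are given here after their values were seen. NKX2-1, the lung lineage factor, rose from 83.1 to 140 TPM on average in NCI-H2228 and from 351 to 435 TPM in SNU2535 (difference -0.44, SE 0.0799, limma adjusted p = 0.00394). IL6R, the interleukin-6 receptor, rose from 19.0 to 36.5 TPM and from 6.37 to 9.07 TPM (difference -0.46, SE 0.0846, limma adjusted p = 0.00418). Of 11 lineage transcription factors 4 were negative and 1 positive (median -0.34). The forkhead factor FOXA2 fell further in SNU2535 (-0.59), and its relative FOXA1 moved in opposite directions. CEBPA (-0.51), called in NCI-H2228 alone, lost its call when any of 7 libraries was left out.

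Opposite called responses were found in 49 genes, 35 with a fall in SNU2535 and a rise in NCI-H2228 and 14 with the reverse. SLC38A2, the amino acid transporter SNAT2 (ENSG00000134294, chromosome 12, 46358189 to 46372867), read 91.5, 82.9 and 90.3 TPM and then 73.6, 74.3 and 71.9 TPM in SNU2535. It read 108, 102 and 102 TPM and then 186, 163 and 182 TPM in NCI-H2228. Neither line overlapped between treatments, and the directions differed (difference -1.03, SE 0.0739, limma adjusted p = 3.20e-06). FOXA1, a pioneer factor of lung epithelium, went from 21.9, 22.0 and 21.8 TPM to 18.4, 17.2 and 19.6 TPM in SNU2535 and from 29.3, 28.7 and 30.0 TPM to 36.2, 38.8 and 36.5 TPM in NCI-H2228. Its difference was -0.58 (SE 0.0715, limma adjusted p = 0.000239), with 83.8% of the DMSO mean in SNU2535 and 127% in NCI-H2228. NAB2, a corepressor of EGR factors, went to 77.7% of the DMSO mean in SNU2535 and 135% in NCI-H2228, and ZFP36, the mRNA decay protein tristetraprolin, to 67.2% and 116%. Among the 14 of the reverse kind was ANKRD1, a YAP target, which rose from 10.1, 11.6 and 9.44 TPM to 21.0, 22.0 and 23.0 TPM in SNU2535 and fell from 68.8, 73.2 and 71.7 TPM to 57.1, 50.3 and 56.6 TPM in NCI-H2228. The groups were apart in each line (difference 1.40, SE 0.0987, limma adjusted p = 2.76e-06). EHF, an epithelial ETS factor, rose to 148% and fell to 81.3%, and the small GTPase genes RASD1 and RAP2B rose to 185% and 163% in SNU2535 and fell to 82.9% and 84.0% in NCI-H2228. The keratin gene KRT16 rose to 146% and fell to 72.9%. All 9 genes named in the paragraph kept the call and the sign of the difference in each setting that tested them.

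The counts of some further lists are given beside the 10.6% called over all tested genes, and nothing particular to these lists is read from them. In the G1/S and DNA replication list 2 of 30 were called, E2F3 (-0.66) and the cyclin gene CCNE1 (-0.48), both negative, and under median-ratio scaling 5 members were called positive. The call of CCNE1 was lost when any of 7 libraries was left out. Of 31 G2 and mitosis genes 2 were negative and 2 positive, and the median was -0.03 (0.03 under median-ratio scaling). When 1 library was left out there were 0 to 3 positive and 0 to 2 negative ones, and the 4 calls were lost together without NCI-H2228 DMSO replicate 1. Autophagy and lysosome genes had 1 call in 28, ULK1 (0.32). In that list 3 genes were positive under median-ratio scaling and 4 under quantile normalization, and 3 were negative without NCI-H2228 DMSO replicate 3. The BCL2 family had 2 calls in 13, BCL2L11 (0.59) and BCL2L1 (-0.25), the latter lost under median-ratio scaling. Of 19 genes of the cereblon ligase and its known neosubstrates 2 were negative, the zinc finger genes ZNF692 (-0.81, limma adjusted p = 0.0372) and ZNF276 (-0.52, limma adjusted p = 0.0308). Neither call was left without any 1 of 6 libraries. Over all 45 lists, 77 of 895 distinct tested genes were positive and 151 negative, and since the lists were chosen for pathways known to respond, nothing is read from these shares.

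The NCI-H3122 libraries took no part in the contrast and give the third line's response to the same genes, from a fit of its own in which 34.1% of 15311 genes had a called response. Of the 1105 negative differences with a value there, the NCI-H3122 response was nearer to that of SNU2535 in 373 (33.8%) and nearer to that of NCI-H2228 in 732. Among the 70 negative differences of at least 1 in size on the log2 scale, 36 were nearer to SNU2535 (51.4%), and 55 were called lower in NCI-H3122. Of 369 positive differences, 239 were nearer to SNU2535 (64.8%), beside 45.6% of the 11712 genes not called. Among the 15 positive differences of at least 1, however, 7 were nearer to SNU2535 (46.7%). In the genes not called, the median response was 0.06 in NCI-H3122, -0.01 in SNU2535 and 0.01 in NCI-H2228. An upward shift moves NCI-H3122 toward NCI-H2228 in negative differences and toward SNU2535 in positive ones. Its part in these shares was not tested. The ERK output genes of the largest differences lay near SNU2535: in NCI-H3122 the response was -4.04 for SPRY4, -4.36 for DUSP6, -2.97 for AREG and -3.37 for FOSL1. PHLDA1 (-2.49) lay between the other lines. HES1 (-0.53), KLF2 (-0.56), CEBPD (-0.40), FOXQ1 (-0.25) and SPRED2 (-0.57) lay nearer to NCI-H2228, as did MYC (-0.64). BTG1, at 0.07 (limma adjusted p = 0.368), had no called response there, and RASD1 (-2.47) and CITED4 (-1.93) fell far below both lines. SLC38A2 (-0.41) and NAB2 (-0.77) were on the side of SNU2535, and FOXA1 (0.53) on that of NCI-H2228.

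**Figure D4:**
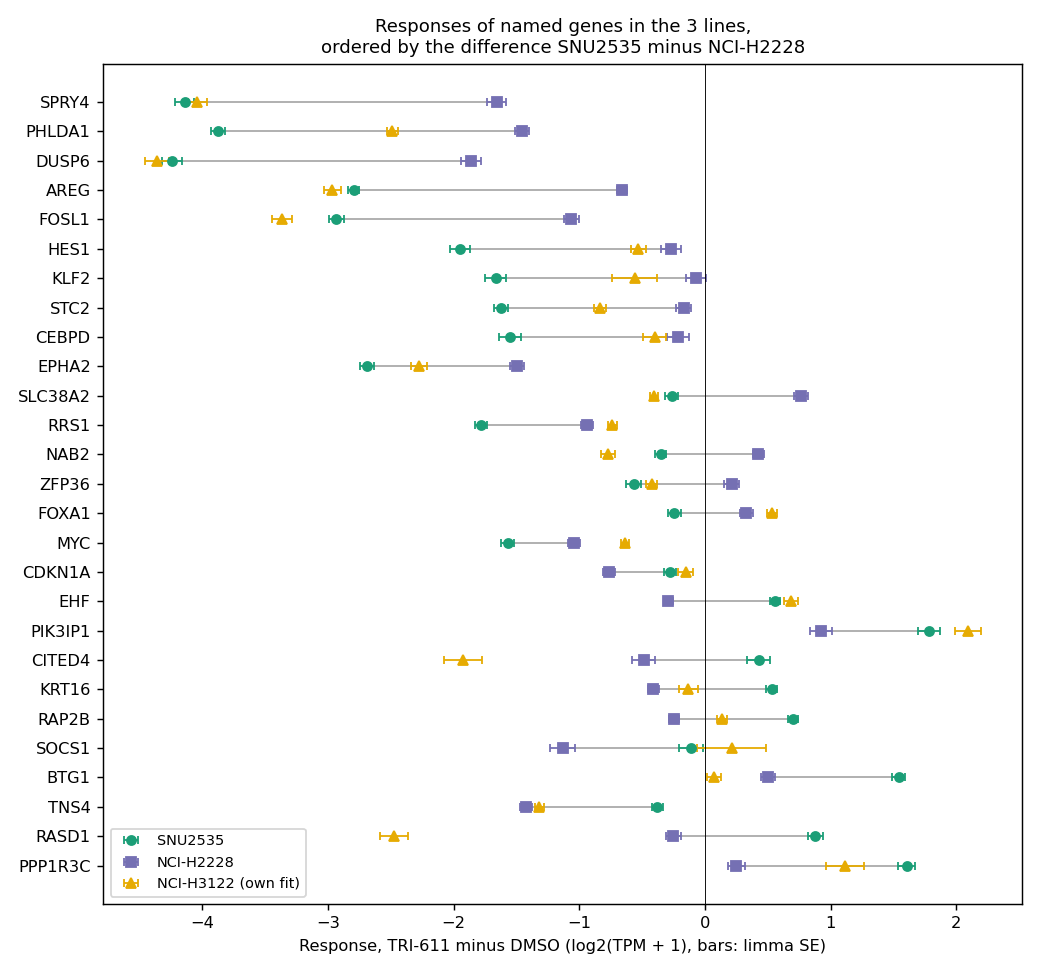
Response (log2(TPM + 1) scale, with limma's SE as bars) of 27 named genes in SNU2535 (circles), NCI-H2228 (squares) and NCI-H3122 (triangles, own fit), ordered by the difference of the first pair. SPRY4, DUSP6, AREG and FOSL1 have their NCI-H3122 value near that of SNU2535, while HES1, KLF2, CEBPD and MYC have it nearer to NCI-H2228.

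Starting levels differed between the lines for part of the called genes. The DMSO means lay within 2-fold for 858 of 1146 negative (74.9%) and 248 of 401 positive differences (61.8%), beside 77.0% of tested genes. The part that unequal starting levels play in the differences was not tested. The calls fell mainly on protein-coding genes, with 12.5% of 11641 called, beside 1.99% of 957 processed pseudogenes and 2.72% of 662 antisense genes. Some of the largest differences in size belong to short or repeated RNAs of low TPM. SNORA65, a small nucleolar RNA, had the largest positive difference (2.38, SE 0.582, limma adjusted p = 0.0271), at 1.19, 1.36 and 2.07 TPM and then 6.51, 3.33 and 9.09 TPM in SNU2535. In NCI-H2228 its libraries spread over 4.30 to 5.65 TPM and then 1.11 to 5.23 TPM, with overlap, and the call was lost when any of 8 libraries was left out. MIR106B, a microRNA precursor gene (-2.49), was listed at 0 in 4 of the 12 libraries and lost its call when any of 10 was left out. Pseudogene copies such as MRPS36P1 share reads with their parent genes and are uncertain. Without a stated strand setting, reads of antisense genes such as AC006329.1 and of their partners cannot be told apart.

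The libraries themselves were alike in replicate correlation and in the number of genes detected, and RNA quality was not assessed. Replicates of a group correlated at r = 0.990 to 0.992 across genes, and 24514 to 25921 genes lay above 0 TPM in each of the 12 libraries, for which TPM carries no read depth. Epithelial markers were present in both lines, with EPCAM at 399 to 467 TPM in SNU2535 and 117 to 127 TPM in NCI-H2228. The adhesion gene CDH1 was at 563 to 683 TPM in SNU2535 but only 5.56 to 6.36 TPM in NCI-H2228. Of 4 leukocyte markers PTPRC reached at most 0.129 TPM and CD68 at most 4.54 TPM, and their sum lay at 2.38 to 4.68 TPM over the 12 libraries. The sum of 3 endothelial markers lay at 10.5 to 12.1 TPM in SNU2535, where PECAM1 and CDH5 were above 4 TPM, and at 1.99 to 2.56 TPM in NCI-H2228. Of 4 fibroblast markers DCN was 0 in all 12 libraries and COL1A2 at most 0.375 TPM, while COL1A1 measured 131 to 164 TPM in SNU2535 and 361 to 393 TPM in NCI-H2228, and LUM 5.62 to 8.21 TPM in SNU2535. The summed fibroblast markers were 136 to 146 TPM with DMSO and 148 to 172 TPM with TRI-611 in SNU2535, and 370 to 393 and 361 to 373 TPM in NCI-H2228. The part of any of these in the differences was not tested. The libraries are bulk, so fewer cells of a kind and less RNA per cell cannot be told apart. ALK RNA, a check on the starting material and not on the degrader, which acts on protein, measured 22.5, 26.6 and 25.3 TPM and then 21.7, 21.7 and 20.4 TPM in SNU2535, and 11.1, 10.9 and 11.1 TPM and then 10.7, 11.0 and 10.8 TPM in NCI-H2228. Its difference in response was -0.19 (SE 0.0847, limma adjusted p = 0.183), and that of EML4 -0.14 (SE 0.0628, limma adjusted p = 0.193).

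All 1547 called differences had the same sign in each of the 3 batches, beside 37.9% of the genes not called. The batches are those that went into the test, so this describes the calls and does not support them.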

How the data were processed

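RNA of 18 samples from 3 lines was sequenced after poly-A enrichment and a library kit with molecular identifiers, per the labels' protocols. The authors deposited TPM values per gene. Reads were handled with fastp 0.23.1, STAR 2.5.2b, featureCounts from Subread 1.5.2 and DESeq2 on GRCh38, per the submitters' processing notes. For the annotation, the strand setting, the use of the identifiers and the step from counts to TPM, the sources used here give nothing. TPM carries no read depth, so no counting interval is given. The 485 rows without a gene name kept their IDs.

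Values were analysed as log2(TPM + 1) with limma 3.58.1 in R 4.3.3. The 4 groups of 12 libraries were fitted together, with trended and robust empirical Bayes and Benjamini-Hochberg adjustment over all 14640 genes, and the contrast was the SNU2535 response minus the NCI-H2228 response. NCI-H3122 had its own fit. The members, gene lists and alternatives were chosen with earlier results of these data known. Named genes were ALK and EML4, the 10 largest called differences per direction with 1 sign in all 3 batches, the same at 10 TPM or more, the 8 opposite responses whose smaller side was largest, and up to 3 called members of each list. On simulated data, 200 of 14640 genes were changed in this contrast. Of changes of 1 and of 0.5 on the log2 scale, 81% and 54% were recovered, and 3.57% of 140 calls were false. The simulated noise was independent for each gene, without a shift shared across a library. These shares therefore do not cover errors from scaling or from single libraries.

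The labels give each replicate number as a batch, which pairs the samples. Same-batch libraries of a line deviated from their group means with correlations of -0.0196 to 0.0920. The alternatives were other pseudocounts, filters, scalings and variance models, a replicate block, all 18 libraries, a minimum size and each library left out. Gene types and coordinates are from GENCODE 29, and promoters from RefSeq on GRCh38.p14, matched by symbol. Figures were drawn with matplotlib 3.10.9.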

Additional observations from a re-analysis of the deposited data

Results flagged for a closer look

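The difference between the lines was itself tested, by the interaction contrast in limma, and 401 genes had a positive and 1146 a negative difference. The named genes below had called responses in opposite directions, some of them small in a line, such as 0.15 for TIPARP in NCI-H2228 and -0.24 for FOXA1 in SNU2535. A fall in SNU2535 with a rise in NCI-H2228 was found for AC092720.1 (-1.28), AL731577.2 (-1.18), the transporter gene SLC38A2 (-1.03), SERTAD4 (-0.88), the mRNA decay gene ZFP36 (-0.78), the EGR corepressor gene NAB2 (-0.78), the AhR target TIPARP (-0.77), the Wnt receptor gene FZD7 (-0.75) and the forkhead factor gene FOXA1 (-0.58). The reverse was found for EHF (0.85), CITED4 (0.92), KRT16 (0.94), RAP2B (0.95), AP000692.2 (1.00), RASD1 (1.13) and ANKRD1 (1.40). Each value is the difference in response on the log2(TPM + 1) scale.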

How the results depend on the processing

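Of 137 named genes with a called difference, 102 kept the call and its direction in each of the 25 settings that tested them, 35 lost the call in at least 1 setting, and 0 reversed. The number of calls was 1083 to 1885 when 1 library was left out, against 1547. Positive calls numbered 251 to 418 and opposite called responses 31 to 86 in those settings, and 781 to 1467 calls were negative. Median-ratio scaling gave 700 positive calls. With a minimum log2 difference of 1 there were 96 calls, 22 positive and 74 negative, with 7 opposite responses. Restricting the test to protein-coding genes, an alternative chosen after seeing the data, gave 75 opposite responses. The cause of these shifts was not tested, except that a minimum size removes calls by construction. Fewer libraries did not always lower the count, which rose to 1885 without NCI-H2228 DMSO replicate 3. The other settings kept the counts within 1.5 times the values reported.

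With the replicate block 1652 genes were called, 1242 negative and 410 positive (1447 of the 1547 were shared), and with the replicate block within each line 1473 (1273 shared). Of the named genes, AC254633.1, DNAJB9, MIR106B, NOG and OAS1 lost the call with the first block, and 12 did with the second, among them ERBB2, TPI1 and CDKN1C. TPM gives no depth, so the limit set by read number is unknown. Among genes near 1 TPM, MIR106B lost its call in 14 of 22 settings and SNORA65 in 8 of 22, while among the most often lost calls, NOG, OAS1 and PSMB9, each was lost in 17.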

Other observations

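Over all tested genes 7.83% had a called negative and 2.74% a called positive difference, and the counts below stand beside these shares. Among 17 nutrient transporters 6 had a negative and 2 a positive difference. Besides SLC38A2, the mitochondrial carrier gene SLC25A25 (-0.84) was the lowest. Among 18 heat shock proteins 4 were negative, led by the HSP40 gene DNAJB1 (-0.62), and 1 was positive, the related DNAJB4 (0.75). The negative ones numbered 2 under median-ratio scaling and 2 to 3 when 1 library was left out, with 2 without SNU2535 DMSO replicate 3, SNU2535 TRI-611 replicate 1, NCI-H2228 DMSO replicate 2, or NCI-H2228 TRI-611 replicates 1 and 3. Of 18 ETS factors 5 were negative, with ETV6 and ETV5 both at -0.57, and 1 was positive, EHF (0.85). Glycolysis genes had 3 positive and 2 negative members among 21 tested. The hexokinase gene HK2 stood at -0.55 and SLC2A1, the glucose transporter GLUT1, at 0.27. The positive ones numbered 5 with the replicate block, 1 without NCI-H2228 DMSO replicate 1 and 6 without SNU2535 TRI-611 replicate 3. Of 21 YAP and TEAD pathway genes 5 were positive, with ANKRD1 (1.40) the highest, and 4 negative, with FJX1 (-1.11) the lowest. There were 3 to 5 positive ones when 1 library was left out, with 3 without SNU2535 DMSO replicates 1 or 2, NCI-H2228 DMSO replicate 2, or NCI-H2228 TRI-611 replicates 1 or 3. In the p53 list PLK3 (-1.21) and CDKN1A (0.48) lay at opposite ends of 23 genes.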
